A study of Mus musculus with 12 samples.

Results

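The genes of the NF-κB subunits and of classical and nuclear IκB proteins were followed in macrophages and in fibroblasts. The members were the rows of the deposited count table with the symbols Nfkb1, Nfkb2, Rel, Rela, Relb, Nfkbia, Nfkbib, Nfkbie, Nfkbiz and Bcl3, which are 10 of 32544 genes. All 10 were among the 14285 genes kept by a filter on low counts. Bone marrow-derived macrophages (BMDMs) carried either the WT or the PHD2cko label and were sequenced 24 h after seeding. NIH/3T3 cells, an established mouse embryonic fibroblast line, were sequenced 72 h after they had been given conditioned medium from BMDMs of one or the other label. Each of the 4 groups had 3 libraries. WT mice were LysMCre, and PHD2cko mice carried in addition the conditional knockout of PHD2, so that both labels shared the Cre recombinase. Cre was driven by the lysozyme M promoter, which is active in myeloid cells. The age and number of donor mice, and whether the sequenced cultures were kept in normoxia or hypoxia, are not given in the sources used here. Nothing states that the libraries of a group came from separate animals, so p-values measure the spread between these libraries, which may be technical.

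NF-κB factors are dimers of Rel-family proteins. RelA, c-Rel and RelB carry a transactivation domain, whereas the Nfkb1 and Nfkb2 products p105 and p100 are precursors that are processed to p50 and p52. Classical IκB proteins hold the dimers in the cytoplasm until IκB kinase marks them for degradation, and several of them, Nfkbia above all, are themselves NF-κB targets that close a feedback loop. Macrophages use the pathway to answer microbial products and cytokines, and fibroblasts to answer TNF and IL-1.

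Since several members are known NF-κB targets, their promoters were searched for κB motifs, and the stretches with a match are shown. RefSeq promoter windows on GRCm38.p6 span 250 bases before to 50 after a transcription start, 300 bases in all. They were on hand for 7 of the 10 members, with 9 windows. Nfkb1, Relb and Nfkbiz had no entry. A strict κB motif, GGG, then 2 bases of any kind, then TTTCC, on either strand, was present in 1.63% of 32851 windows and in those of 3 members, Nfkb2, Rel and Nfkbia. Capitals mark the match, and all sequences are written 5′ to 3′ on the strand of the gene.
Nfkb2, chr19:46304716-46304745, plus strand: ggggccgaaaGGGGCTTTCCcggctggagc
Nfkb2, chr19:46305695-46305724, plus strand: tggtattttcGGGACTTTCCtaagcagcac
Rel, chr11:23771041-23771070, minus strand: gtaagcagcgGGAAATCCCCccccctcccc
Nfkbia, chr12:55492648-55492847, minus strand: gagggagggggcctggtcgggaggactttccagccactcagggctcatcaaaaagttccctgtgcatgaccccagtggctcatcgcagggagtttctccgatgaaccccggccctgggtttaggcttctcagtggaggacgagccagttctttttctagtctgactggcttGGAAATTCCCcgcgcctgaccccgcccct
The Nfkbia stretch ends at the base before the annotated start. The strict letters were not found in the windows of Rela, Nfkbib, Nfkbie and Bcl3. A looser form, GGG, then 5 bases of any kind, then CC, on either strand, was in 50.8% of all windows and in those of 6 of the 7 members, and every strict match is also a match to it. These are matches of letters and not measured binding sites.

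Libraries held from 15516465 to 25199770 counts. Egln1, which encodes PHD2, was at 54.7 to 55.8 CPM (counts per 1e6 counts, after TMM normalisation) in WT BMDMs and was higher in BMDM libraries labelled PHD2cko, with a log2 fold change of 0.33 (SE 0.0527, adjusted p = 0.00203, edgeR). The table has 1 value per gene, so a deleted exon could not be seen, and the groups are named by their labels throughout. The study reports knockdown of PHD2 mRNA and more HIF1α protein in PHD2cko BMDMs, and higher hypoxia activity in their sequenced RNA. All 24 macrophage markers were higher in WT BMDMs than in fibroblasts in WT medium, and all 12 fibroblast markers were lower, so both cell types carried their defining genes. Of the 24 macrophage markers, 0 passed the test between the BMDM labels with edgeR on all 12 libraries (1 at an unadjusted p under 0.05), 0 with DESeq2 and 0 with limma-voom, but 5 were higher and 9 lower under the PHD2cko label when the 6 BMDM libraries were fitted alone. Neutrophil, T and NK cell and dendritic cell markers summed to at most 4.55 CPM over the total count in any library.

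In WT medium, the 3T3 library of replicate 1 stood apart. Chi-square over degrees of freedom, computed from the counts, was 23.1 for replicate 1 set against replicate 2 and 24.9 against replicate 3, but 2.29 for replicate 2 against replicate 3.

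The levels of the members were first set side by side in the WT groups. To compare genes, CPM were divided by the length of the longest coding transcript in kb. The order can depend on this choice, since the coding transcripts of a gene differ in length, for Bcl3 from 755 to 1850 bases. In WT BMDMs, Nfkbia, the classical inhibitor IκBα, had the highest level at 52.2 ± 2.74 CPM per kb (SD, n = 3). Rela followed at 45.2 ± 0.982 CPM per kb, with no overlap between the libraries of the pair. Bcl3 at 38.3 ± 3.24 and Nfkb1 at 37.5 ± 0.817 CPM per kb overlapped each other, as did Relb at 25.9 ± 1.08 and Nfkb2 at 25.3 ± 1.11 CPM per kb. Nfkbib, Rel and Nfkbie formed a lower tier of overlapping neighbours, from 13.4 to 11.4 CPM per kb, and Nfkbiz was lowest at 8.85 ± 0.337 CPM per kb.

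The order was another one in fibroblasts in WT medium. Rela, Nfkb2 and Nfkb1 led with overlapping levels of 20.4 ± 1.53, 19.98 ± 0.872 and 19.3 ± 0.561 CPM per kb. Nfkbia came next at 9.86 ± 0.717 CPM per kb and overlapped Bcl3, and Relb overlapped Bcl3 in turn. Rel, which encodes the c-Rel subunit typical of blood cells, at 1.74 ± 0.233 CPM per kb, and Nfkbie, which encodes IκBε, at 1.44 ± 0.143 CPM per kb were the lowest and overlapped.

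**Figure D1:**
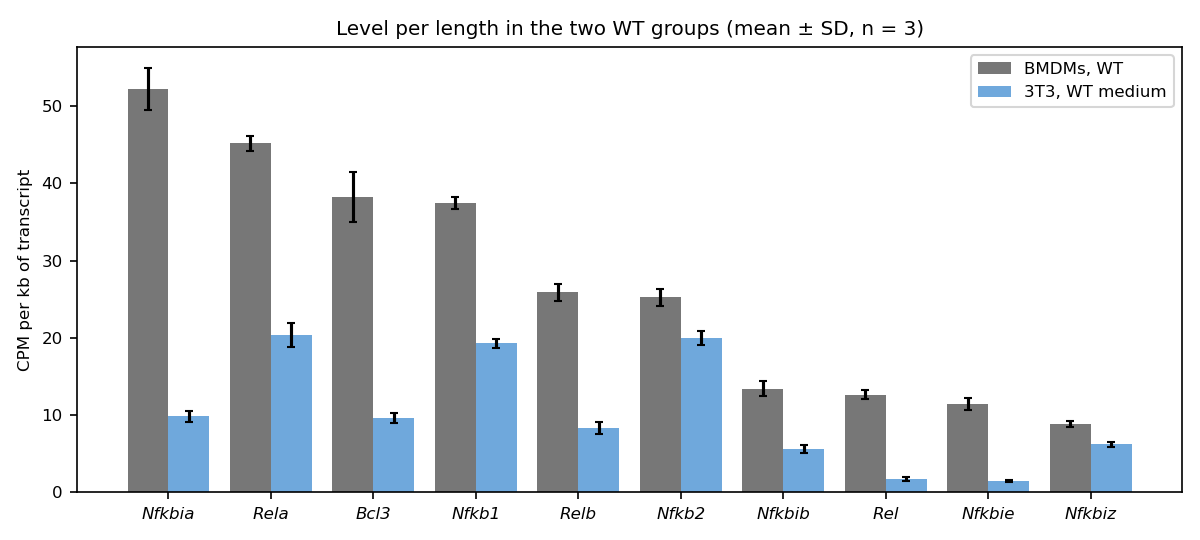
Level of each member in CPM per kb of its longest coding transcript (y axis) in BMDMs labelled WT and in 3T3 fibroblasts in WT medium. Bars are means and whiskers SD, n = 3. Nfkbia is the highest bar in BMDMs at 52.2 CPM per kb and stands at 9.86 in fibroblasts.

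All 10 members were higher in WT BMDMs than in fibroblasts in WT medium in edgeR's quasi-likelihood test, where 40.4% of all genes tested were called higher in BMDMs. The median log2 fold change of the members was 1.46, against -0.08 over all genes tested. The step was steepest for Nfkbie, 7.95-fold (95% interval 6.16 to 10.3), and Rel, 7.22-fold (6.30 to 8.27). Nfkbia was 5.29-fold and Bcl3, a nuclear IκB protein that pairs with p50 and p52, 3.98-fold higher. The smallest differences were those of Nfkbiz, which encodes the nuclear protein IκBζ, at 1.42-fold, and Nfkb2 at 1.26-fold. Culture, time and medium differed together with the cell type and cannot be told apart from it.

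The comparison of BMDMs asked how the label bore on the family in the macrophages themselves. With all 12 libraries in the fit, 0 of the 10 members passed an adjusted p of 0.05 with edgeR, 5 had an unadjusted p under 0.05, as 19.0% of all genes had, and 1 passed with DESeq2 and 1 with limma-voom. Of all genes tested, 3.35% were called lower and 3.38% higher with edgeR. The shares called with DESeq2 and with limma-voom are not given here. All 10 log2 fold changes were negative, with a median of -0.15 against 0.00022 over all genes. For 7 members, each library labelled PHD2cko lay below each WT library, which held for 15.6% of all genes tested. The summed level of 7 B and plasma cell markers also differed between the labels, from 196 to 202 CPM over the total count in WT and from 160 to 174 CPM under the PHD2cko label, nearly all of it Ighm, and its part in the values of the family was not tested. In bulk RNA, fewer cells of a type and less RNA per cell cannot be told apart.

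Among the subunits, Nfkb1 was at 157, 155 and 151 CPM in WT replicates 1, 2 and 3 and at 143, 143 and 146 CPM in those labelled PHD2cko. The ranges did not overlap, but the gap was small, with a log2 fold change of -0.10 (SE 0.0396, adjusted p = 0.178, edgeR). Nfkb2 was at 99.8, 99.5 and 92.2 CPM against 89.0, 85.4 and 91.8 CPM, with a log2 fold change of -0.13 (adjusted p = 0.224, edgeR). The ranges of Nfkb2 came within 1 CPM of each other without overlap. Relb, which works with p52 in the non-canonical pathway, ran from 54.5 to 58.9 CPM in WT and from 47.7 to 52.7 CPM under the PHD2cko label (log2 fold change -0.18, adjusted p = 0.404, edgeR). The libraries of Rela and Rel overlapped between the labels. Rela, the main transactivating subunit, was at 123 ± 2.67 against 121 ± 2.95 CPM (SD, n = 3 each), and the 95% interval of its log2 fold change ran from -0.13 to 0.10. For Rel the interval ran from -0.25 to 0.09.

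Among the inhibitors, Nfkbia was at 87.3, 79.8 and 79.8 CPM in WT and at 69.1, 69.5 and 67.6 CPM in libraries labelled PHD2cko. The 3 libraries labelled PHD2cko lay close together and all below WT, with a log2 fold change of -0.26 (SE 0.105, adjusted p = 0.190, edgeR). Nfkbie was at 29.6, 25.7 and 28.4 CPM against 23.6, 24.1 and 23.3 CPM, again without overlap (log2 fold change -0.24, adjusted p = 0.405, edgeR). Nfkbib, which encodes IκBβ, overlapped, at 27.7 ± 1.93 against 26.0 ± 0.855 CPM (SD, n = 3 each).

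Both nuclear IκB genes came nearest to the threshold. Bcl3 was at 77.3, 69.6 and 65.5 CPM in WT and at 53.5, 56.1 and 63.1 CPM under the PHD2cko label. Its log2 fold change was -0.30 (95% interval -0.49 to -0.10, adjusted p = 0.0720, edgeR), and it passed the threshold with DESeq2, with limma-voom and with a filter of at least 10 counts. Nfkbiz was at 35.4, 38.0 and 35.8 CPM against 34.1, 28.7 and 31.1 CPM, with a log2 fold change of -0.22 (adjusted p = 0.0890, edgeR).

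The call for the family differed between the fits. Fitted on the 6 BMDM libraries alone, 7 members were lower under the PHD2cko label, where 10.8% of 12282 genes were called lower and 9.79% higher. These were Nfkb1, Nfkb2, Relb, Nfkbia, Nfkbie, Nfkbiz and Bcl3, with adjusted p-values in edgeR from 0.000528 for Nfkbia to 0.0335 for Nfkb2, and log2 fold changes from -0.10 to -0.29. Rel, Rela and Nfkbib did not pass in that fit either. The estimates were close to those of the fit on all 12 libraries, but the SE of each member was smaller. For Nfkbia the log2 fold change was -0.26 in both, with an SE of 0.0432 against 0.105. That fit also tested fewer genes and called 14 of the 24 macrophage markers in one or the other direction, and the part of these markers in the values of the family was not tested. Mrc1, the mannose receptor, was at 557 ± 10.7 CPM in WT and 807 ± 29.7 CPM under the PHD2cko label, and Cybb, the NADPH oxidase subunit, at 1981 ± 77.2 and 1502 ± 34.2 CPM (SD, n = 3 each; both named after their values were seen).

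**Figure D2:**
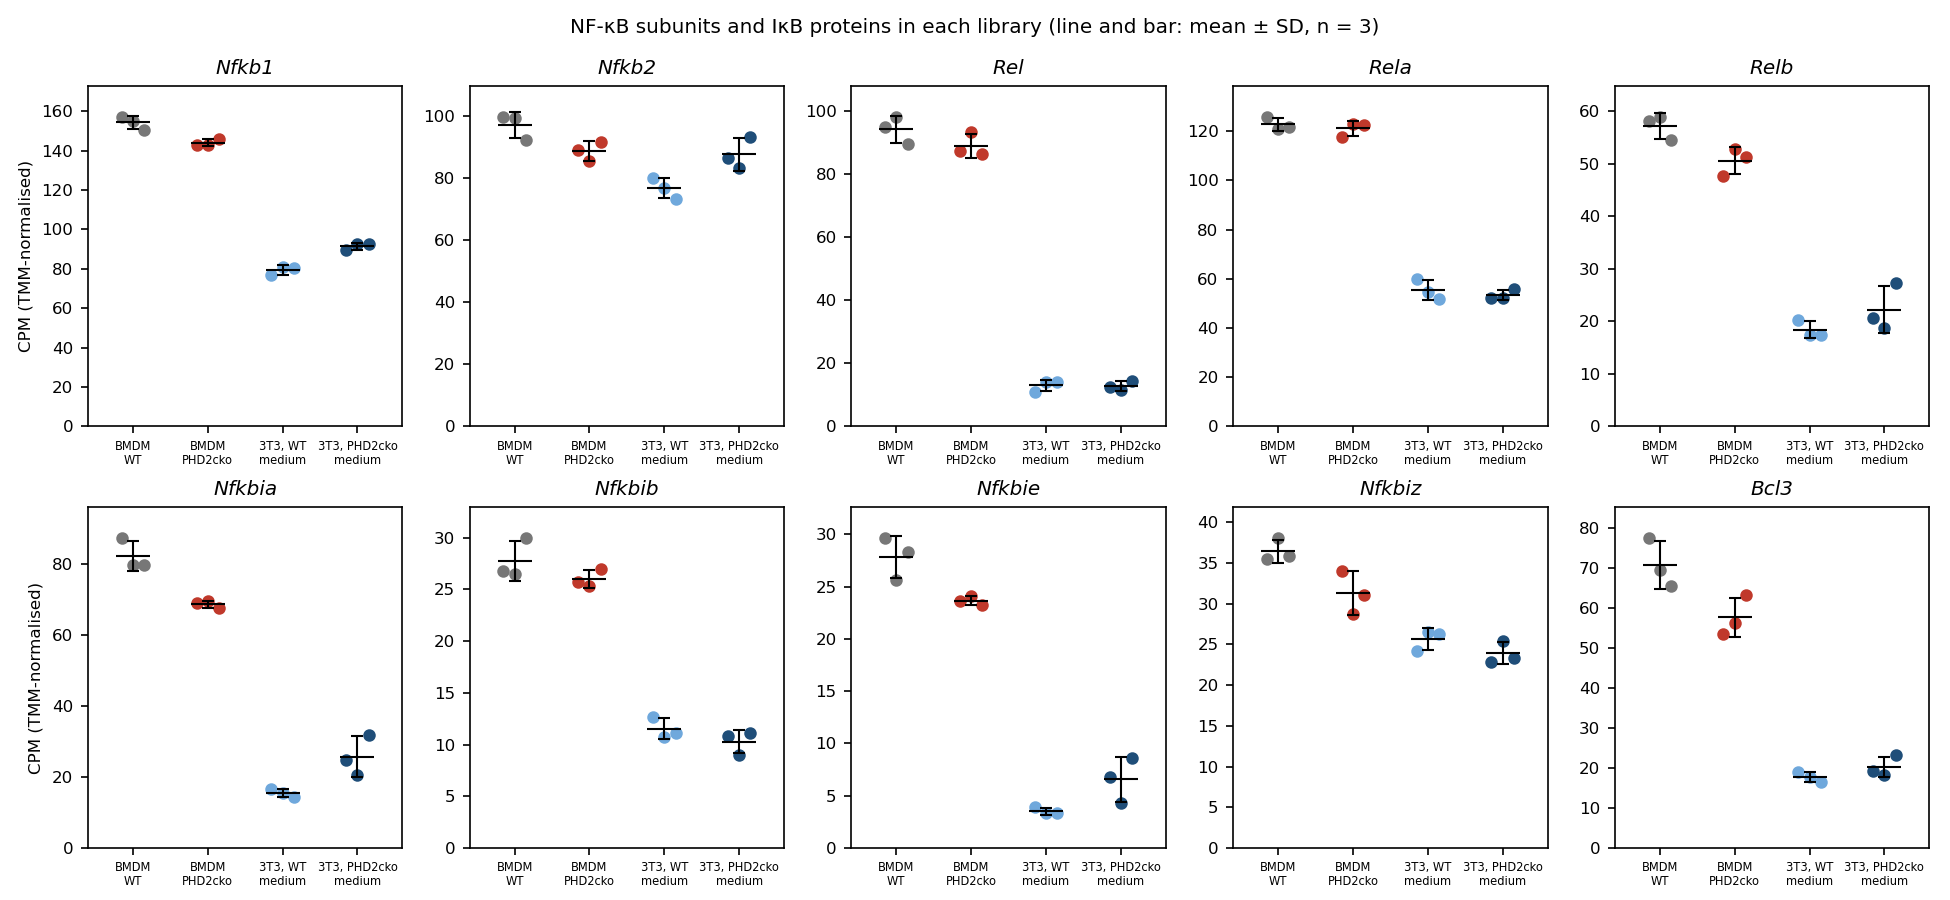
CPM after TMM normalisation (y axis, from 0) of each member in the 12 libraries, by group. Points are libraries and black bars the mean ± SD, n = 3 per group. Nfkbia spans 79.8 to 87.3 CPM in WT BMDMs and 67.6 to 69.5 CPM in BMDMs labelled PHD2cko.

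Set against Rela in the same library, Nfkbia had a ratio of 0.671 ± 0.0206 in WT BMDMs and 0.568 ± 0.0180 in those labelled PHD2cko (CPM ratio, SD, n = 3 each). The two-sided exact permutation test gave p = 0.1, the smallest that 3 against 3 libraries allow (0.2 after Benjamini-Hochberg adjustment over 8 ratio tests). For Relb to Rela, at 0.466 ± 0.0199 and 0.418 ± 0.0117, the exact permutation p was also 0.1. The ratio of Nfkb2 to Nfkb1 was 0.629 ± 0.0149 and 0.617 ± 0.0164 (exact permutation p = 0.4), and for Rel to Rela the exact permutation p was 0.5.

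In fibroblasts, the comparison asked whether the family differed between medium from PHD2cko and from WT macrophages. Nfkb1, Nfkb2, Nfkbia and Nfkbie were higher in PHD2cko medium in edgeR's test and none of the members was lower. Nfkbie and Nfkbia moved most, 1.89-fold and 1.66-fold. Of all genes tested, 8.93% were called higher and 6.75% lower. The same 4 members lay without overlap above WT medium, as 15.4% of all genes did, and the median log2 fold change of the 10 members was 0.19, against -0.0046 over all genes.

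Nfkbia was at 16.7, 15.5 and 14.5 CPM in fibroblasts in WT medium and at 24.7, 20.7 and 31.9 CPM in PHD2cko medium. All 3 libraries in PHD2cko medium lay above WT medium but spread widely, with a log2 fold change of 0.73 (SE 0.124, adjusted p = 0.00169, edgeR). Nfkbie was at 3.92, 3.30 and 3.33 CPM in WT medium and at 6.78, 4.28 and 8.57 CPM in PHD2cko medium. Its replicate 2 in PHD2cko medium was close to the WT range and replicate 3 far above it, and the log2 fold change was 0.92 (SE 0.195, adjusted p = 0.00727, edgeR).

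Both precursor subunits changed by less. Nfkb1 was at 76.7, 80.8 and 80.7 CPM in WT medium and at 89.5, 92.6 and 92.5 CPM in PHD2cko medium, with a log2 fold change of 0.20 (SE 0.0404, adjusted p = 0.00463, edgeR). The libraries of Nfkb1 were tight within each medium. Nfkb2 was at 80.2, 76.9 and 73.5 CPM against 86.4, 83.3 and 93.4 CPM, with a log2 fold change of 0.19 (SE 0.0554, adjusted p = 0.0354, edgeR). The calls of Nfkb1, Nfkbia and Nfkbie held with each library left out in turn, whereas that of Nfkb2 held in 2 of 6 such fits. Fitted on the 6 fibroblast libraries alone, Nfkb1 (adjusted p = 0.0412, edgeR) and Nfkbia (0.0302) passed, and Nfkbie (0.0753) and Nfkb2 (0.105) did not. In that fit 4.23% of 13379 genes were called higher and 2.59% lower.

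The remaining 6 members did not pass. Relb was at 20.2, 17.4 and 17.4 CPM in WT medium and 20.7, 18.7 and 27.2 CPM in PHD2cko medium, so that 1 library was high and the groups overlapped (log2 fold change 0.28, 95% interval 0.03 to 0.54, adjusted p = 0.125, edgeR). For Bcl3 the log2 fold change was 0.19 (95% interval -0.03 to 0.42). Rela had a log2 fold change of -0.05 (95% interval -0.17 to 0.07) and Rel one of -0.02 (-0.24 to 0.20). Nfkbib and Nfkbiz had log2 fold changes of -0.16 (-0.36 to 0.05) and -0.11 (-0.26 to 0.05). The ratio of Nfkbia to Rela was 0.281 ± 0.00121 in WT medium and 0.480 ± 0.0889 in PHD2cko medium, at the smallest two-sided exact permutation p that 3 against 3 allow, 0.1 (adjusted 0.2). The exact permutation p was also 0.1 for Relb to Rela, at 0.331 ± 0.0117 and 0.414 ± 0.0668, and 0.9 for both Nfkb2 to Nfkb1 and Rel to Rela.

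**Figure D3:**
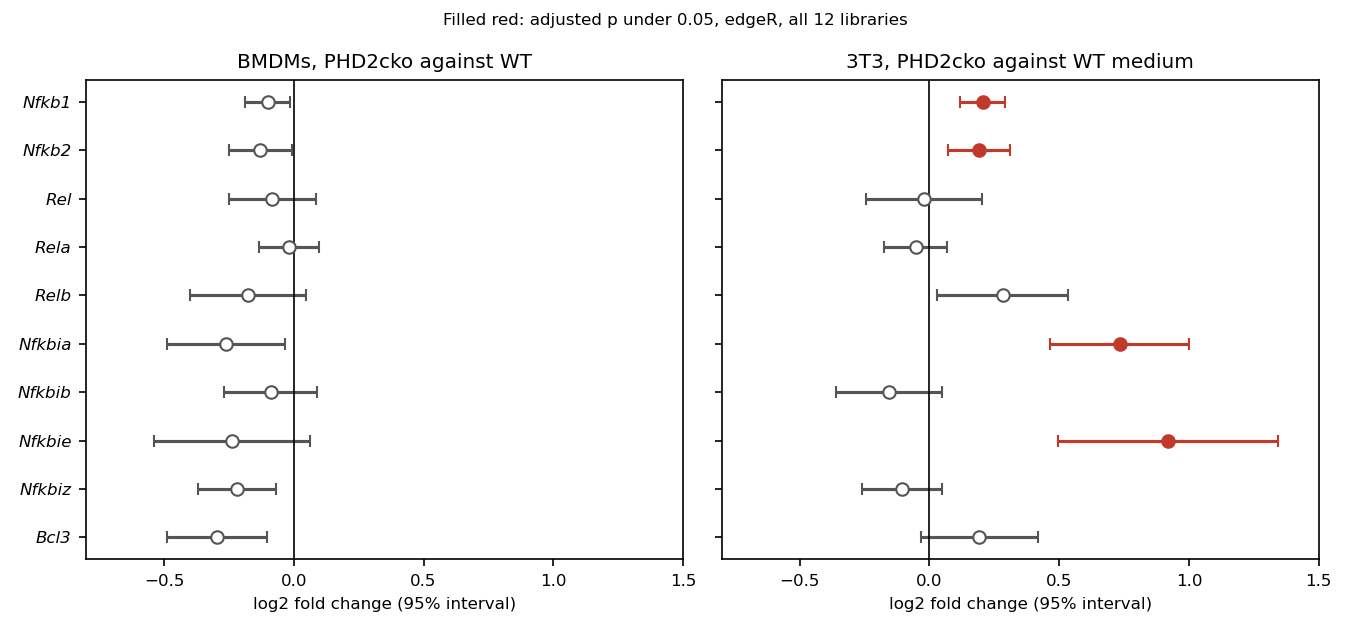
Log2 fold change (x axis) of each member, PHD2cko against WT label in BMDMs (left) and PHD2cko against WT medium in 3T3 fibroblasts (right), with 95% intervals from edgeR on all 12 libraries. Filled red points passed an adjusted p of 0.05, which 0 members did in BMDMs and 4 in fibroblasts.

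Macrophage RNA moved with the fibroblast groups. The share of macrophage RNA, read as the summed CPM of 24 macrophage markers relative to that in BMDMs, was 0.0655, 0.0744 and 0.0805% in WT medium and 2.76, 0.638 and 2.48% in PHD2cko medium. Of the 24 markers, 23 were called higher in PHD2cko medium, and their summed level was 22.6 to 27.8 CPM in WT medium and 217 to 941 CPM in PHD2cko medium. PHD2cko medium replicate 2, with the lowest share of the 3, was the lowest of the 3 for 8 of the 10 members, called or not, the exceptions being Nfkb1 and Nfkbiz, as it was for 37.5% of all genes tested. The summed level of the 7 B and plasma cell markers also differed, at 4.06 to 5.53 CPM over the total count in WT medium and 12.5 to 14.5 CPM in PHD2cko medium, with Ighm called higher, and it was highest in replicate 2. Its part in the values of the family was not tested.

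Multiplied by the BMDM level, the share came to 15.5% of the CPM difference of Nfkb1, 10.5% of that of Nfkb2, 9.89% of that of Nfkbia and 11.6% of that of Nfkbie. After the share was subtracted from each library, the same 4 members passed. How many of all genes were called in that fit is not given here. With replicate 2 as the 1 library left in PHD2cko medium, an alternative chosen after the data were seen, 0 members passed. The log2 fold changes were then 0.22 for Nfkb1, 0.12 for Nfkb2, 0.41 for Nfkbia and 0.29 for Nfkbie. The part of macrophage RNA in what was left of these differences was not tested.

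**Figure D4:**
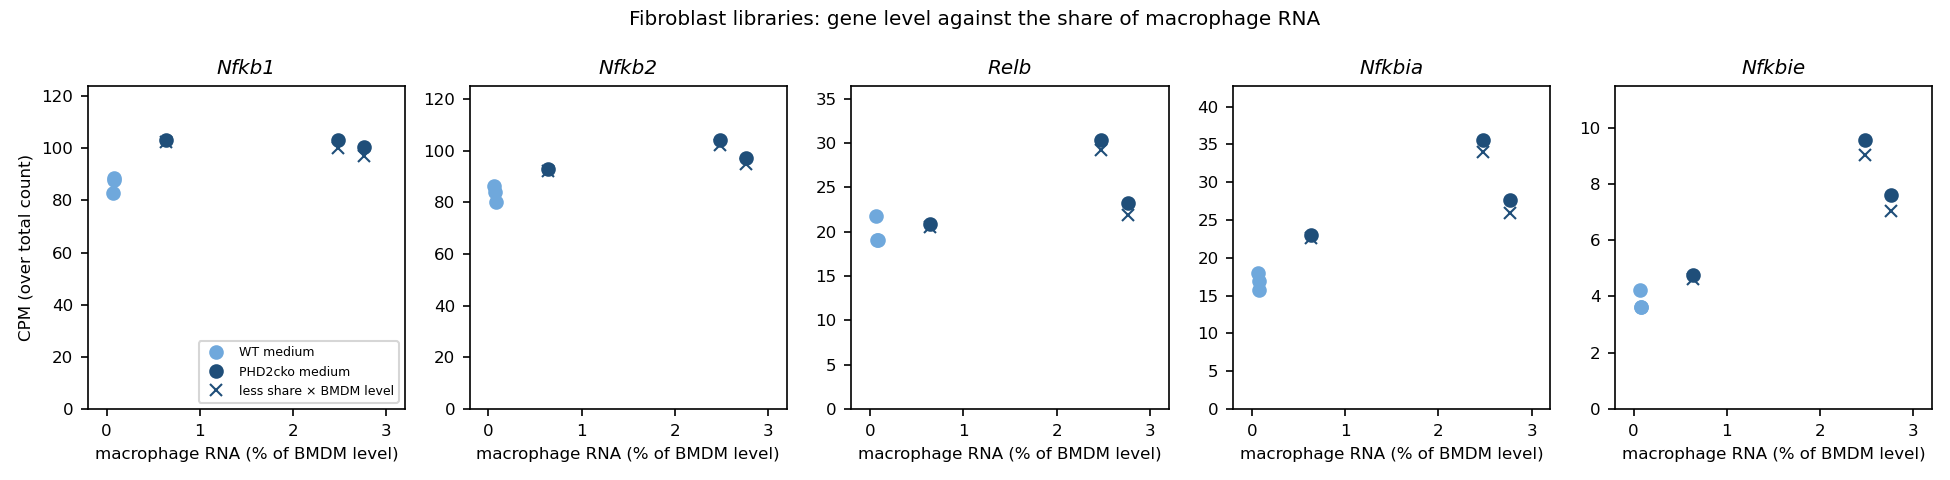
CPM over the total count (y axis, from 0) of 5 members in the 6 fibroblast libraries against the share of macrophage RNA in percent of the BMDM level (x axis). Crosses give the level in PHD2cko medium less the share times the BMDM level; for Nfkbia the 3 libraries in WT medium lie below all 3 crosses.

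The label effect in fibroblasts was set against that in BMDMs by an interaction term. It was higher in fibroblasts for 5 members, where 7.71% of all genes were called higher. The differences in log2 fold change were 0.30 for Nfkb1 (adjusted p = 0.00345, edgeR), 0.32 for Nfkb2, 0.99 for Nfkbia (adjusted p = 0.00148, edgeR), 1.16 for Nfkbie and 0.49 for Bcl3. The count fell to 3 without WT BMDM replicate 1, WT BMDM replicate 2, PHD2cko BMDM replicate 2 or PHD2cko medium replicate 3. The calls of Nfkb1, Nfkbia and Nfkbie held in 12 of 12 fits with 1 library left out, that of Nfkb2 in 8 and that of Bcl3 in 4. Relb had a difference of 0.46 (adjusted p = 0.0773, edgeR) and did not pass. For Rela the difference was -0.03, with a 95% interval from -0.20 to 0.13.

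The wider pathway was read from 4 lists. Of 27 kinases, adaptors and ubiquitin ligases upstream of NF-κB, 2 were lower and 0 higher under the PHD2cko label in BMDMs with edgeR, beside the 3.35% of all genes that were lower, with a list median of -0.05. With the 6 BMDM libraries alone, 7 were lower and 2 higher, beside 10.8% and 9.79% of all genes. Ikbke, the IκB kinase relative IKKε, was at 181 ± 7.24 CPM in WT and 143 ± 6.66 CPM under the PHD2cko label (log2 fold change -0.34, adjusted p = 0.00795, edgeR). Birc3, a ubiquitin ligase that restrains the non-canonical pathway, was at 130 ± 4.83 and 105 ± 3.56 CPM (log2 fold change -0.30, adjusted p = 0.00566, edgeR). In fibroblasts 4 of the 27 were higher and 1 lower, beside 8.93% and 6.75% of all genes. With the macrophage share subtracted, 3 were higher and 2 lower. With the 6 fibroblast libraries alone, 1 of 26 was higher and 0 lower, beside 4.23% and 2.59% of all genes. Traf3, an adaptor, rose from 46.0 ± 7.17 to 58.2 ± 4.47 CPM, Tank from 29.8 ± 0.518 to 35.4 ± 1.40 CPM and Tab2 from 134 ± 4.54 to 150 ± 3.27 CPM. Traf1 had 0, 1 and 1 counts in WT medium and 8, 5 and 13 in PHD2cko medium, and was the 1 of the 4 higher genes that was at least 10 times higher in WT BMDMs. Rbck1, a part of the linear ubiquitin ligase, was lower, with a log2 fold change of -0.16.

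Of 14 negative regulators outside the family, 0 passed in BMDMs with edgeR, and 1 was lower with the 6 BMDM libraries alone, where 10.8% of all genes were. In fibroblasts 4 were higher and 1 lower, with a list median of -0.03, which was 0.05 without WT medium replicate 1, beside 8.93% of all genes called higher and 6.75% lower. With the 6 fibroblast libraries alone, 0 of 13 were higher and 0 lower in edgeR, beside 4.23% and 2.59% of all genes. Tnfaip3, the ubiquitin-editing enzyme A20, went from 1.51 ± 0.250 to 2.49 ± 0.829 CPM (log2 fold change 0.73, adjusted p = 0.0384, edgeR), and Irak3, an inhibitor of Toll-like receptor signalling, from 1.55 ± 0.316 to 2.54 ± 0.142 CPM. Nfkbid, a further nuclear IκB, had 8, 6 and 4 counts in WT medium and 14, 8 and 12 in PHD2cko medium. These 3 genes were at least 10 times higher in WT BMDMs than in fibroblasts in WT medium, and with the macrophage share subtracted 1 gene of the list was called higher and 2 lower. Cyld, a deubiquitinase, rose from 62.7 ± 3.58 to 72.6 ± 3.02 CPM. Zc3h12a, the RNase Regnase-1, was lower, at 7.38 ± 0.518 against 5.60 ± 0.593 CPM.

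Of 37 NF-κB response genes, 32 passed the filter. In BMDMs, 4 were lower and 0 higher under the PHD2cko label with edgeR, with a list median of -0.14, beside 3.35% of all genes lower and 3.38% higher. Cxcl10, a chemokine that interferon also induces, was at 18.8 ± 2.05 CPM in WT and 6.36 ± 0.715 CPM under the PHD2cko label (log2 fold change -1.56, adjusted p = 0.000351, edgeR). Tnfaip2 was at 702 ± 20.2 and 551 ± 24.5 CPM, Sod2, the mitochondrial superoxide dismutase, at 88.4 ± 2.56 and 70.8 ± 1.64 CPM, and Cflar, an inhibitor of caspase 8, at 158 ± 2.56 and 133 ± 3.96 CPM. With the 6 BMDM libraries alone, 10 of 30 were lower, beside 10.8% of all genes, and 5 higher, beside 9.79%.

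In fibroblasts, 16 response genes were higher in PHD2cko medium and 2 lower, with a list median of 0.63, which was 1.47 without WT medium replicate 1; of all genes, 8.93% were called higher and 6.75% lower. With the 6 fibroblast libraries alone, 19 of the genes passed the filter, 5 were higher and 2 lower, and the median was 0.11. In that fit 4.23% of all genes were called higher and 2.59% lower. Of the 16, 11 were at least 10 times higher in WT BMDMs than in fibroblasts in WT medium. The largest fitted changes belonged to genes with almost no counts in WT medium, so counts are given and no fold. Ccl4, a chemokine, had 0 counts in the 3 libraries in WT medium and 54, 6 and 36 in PHD2cko medium. Tnf, the cytokine, had 0 in WT medium and 28, 4 and 32 in PHD2cko medium. Ccl3, a chemokine, had 0, 1 and 0 counts against 62, 20 and 73, and Bcl2a1b, a survival gene, had 0 against 30, 8 and 46. Icam1, an adhesion molecule, had 1, 2 and 0 counts against 53, 7 and 40. Each of these 5 genes was lowest, among the libraries in PHD2cko medium, in replicate 2, which had the lowest macrophage share. The 5 of the 16 that were less than 10 times higher in WT BMDMs, named after their values were seen, were Ccl2, Ccl5, Ccl7, Irf1 and Junb. These genes too were lowest in replicate 2 among the libraries in PHD2cko medium. Ccl2, a monocyte chemokine, went from 7.20 ± 2.24 to 26.7 ± 10.9 CPM (log2 fold change 1.91, adjusted p = 0.000514, edgeR), beside 1.03 CPM in WT BMDMs, and Ccl7, a related chemokine, from 24.5 ± 4.62 to 37.2 ± 7.80 CPM, beside 0.0418 CPM in WT BMDMs. Ccl5, Irf1 and Junb were higher in WT BMDMs, at 4.23, 123 and 127 CPM, than in fibroblasts in WT medium, at 0.438, 41.9 and 18.7 CPM. With the share subtracted, 13 genes of the list were higher and 1 lower. Gadd45b, a stress gene, was lower, at 31.7 ± 2.77 against 19.8 ± 1.14 CPM, as was Ier3, an early response gene, at 19.0 ± 2.94 against 15.2 ± 1.05 CPM.

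Among 13 receptors and proximal adaptors, Tlr2, a receptor for bacterial lipoproteins, was the 1 called in BMDMs, at 187 ± 8.53 CPM in WT and 126 ± 2.50 CPM under the PHD2cko label (log2 fold change -0.57, adjusted p = 0.000135, edgeR), beside 3.35% of all genes called lower. With the 6 BMDM libraries alone, 3 were lower, beside 10.8% of all genes. In fibroblasts 2 were higher, Cd14 and Tnfrsf11a (RANK), and 1, the TNF receptor gene Tnfrsf1b, was lower, beside 8.93% and 6.75% of all genes. With the macrophage share subtracted, 1 was higher and 2 lower. With the 6 fibroblast libraries alone, 1 was higher and 0 lower, beside 4.23% and 2.59% of all genes. Cd14 and Tnfrsf11a were at least 10 times higher in WT BMDMs than in fibroblasts in WT medium. Tnfrsf11a had 30, 37 and 30 counts in WT medium and 88, 29 and 93 in PHD2cko medium, low in replicate 2. Cd14 was at 4.16 ± 0.967 CPM in WT medium and 26.8 ± 14.4 CPM in PHD2cko medium, beside 312 ± 16.3 CPM in WT BMDMs, and is also 1 of the 24 macrophage markers from which the share was computed.

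**Figure D5:**
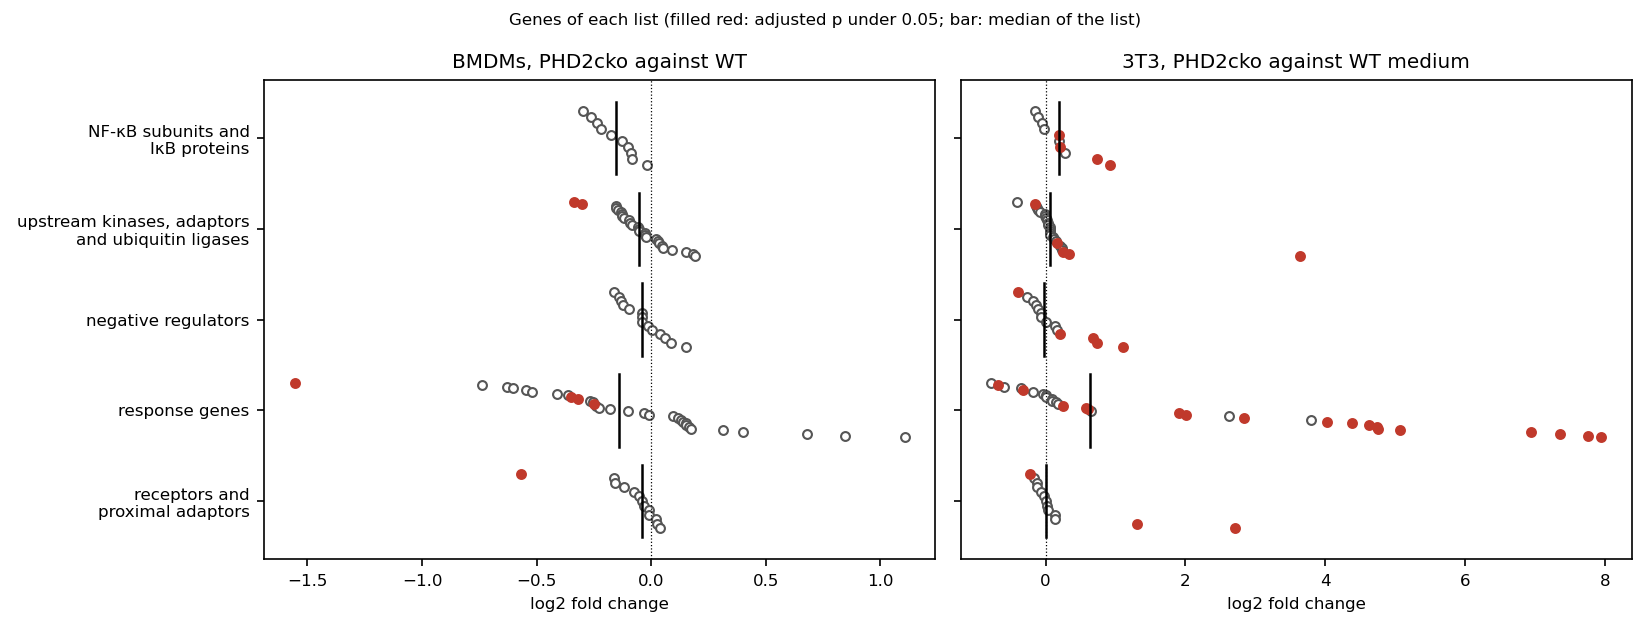
Log2 fold change (x axis, with a different range in each panel) of the genes of the family and of 4 pathway lists in BMDMs (left) and 3T3 fibroblasts (right). Each point is a gene that passed the filter, filled red points passed an adjusted p of 0.05 and black bars are list medians; for response genes these are -0.14 in BMDMs and 0.63 in fibroblasts (1.47 without WT medium replicate 1).

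Genes most like the 4 called members were sought over the 12 libraries after each cell type was centred. Nfkbia lay nearest to Nfkbie (Pearson r = 0.972 over 12 libraries, a description that shares libraries and depth), the myeloid kinase gene Fgr (0.972) and the chemokine gene Ccl5 (0.970), and Nfkbie to Uchl1 (0.974), Nfkbia and March1 (0.971). Macrophage RNA differed among these libraries, and its part in the likeness was not tested. Nfkb2 lay nearest to Irf1 (0.946) and Ccl5 (0.942), and Nfkb1 to Zc3h7a (0.977).

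On GRCm38, Nfkb1 lies at chr3:135584655-135691547, Nfkb2 at chr19:46304320-46312385, Rel at chr11:23736847-23770970, Rela at chr19:5637483-5648130 and Relb at chr7:19606217-19629438. Nfkbia lies at chr12:55489410-55492647, Nfkbib at chr7:28758251-28767512, Nfkbie at chr17:45555703-45563169, Nfkbiz at chr16:55811375-55838899 and Bcl3 at chr7:19808462-19822770. Nfkb1 overlaps Gm43430 on the same strand over 3897 bases, Nfkb2 overlaps Psd and a long noncoding gene on the other strand, Nfkbib overlaps Ccer2 and Sirt2, and Bcl3 overlaps the antisense genes Gm16174 and Gm16175. Whether the libraries kept strand is not given in the sources used here, so reads from the overlaps on opposite strands cannot be told apart, and strand could not separate those of Nfkb1 and Gm43430.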

How the data were processed

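RNA from BMDMs and 3T3 fibroblasts was measured in 12 libraries. The authors deposited estimated counts per gene, made with Kallisto on GRCm38 and without normalisation. The values are whole numbers, and how they were rounded is not given in the sources used here. edgeR 4.0.16 (R 4.3.3) was used with filterByExpr on the 4 groups, TMM and a quasi-likelihood fit of all 12 libraries, with Benjamini-Hochberg adjustment over all 14285 genes tested and a threshold of 0.05. The study used limma-voom, which was an alternative here (limma 3.58.1), as was DESeq2 1.42.0. The steps were tested on simulated data. Of 100 genes changed by a log2 of 0.5, 65 were found between BMDM labels, 73 in fibroblasts, 75 between cell types and 42 in the interaction. Smaller changes were not simulated. The members and lists were chosen with earlier results of these data known. From each list, at most 5 called genes per direction and comparison are named, by size of change. Beyond these, 5 response genes higher in PHD2cko medium are named, chosen after their values were seen. For macrophage shares, CPM are over the total count. For ratios within a library, exact permutation tests were used. Intervals of fold changes are 95%. A part of the genotype that the mice of both labels share is not reported here.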

Additional observations from a re-analysis of the deposited data

Results flagged for a closer look

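The label effect differed between fibroblasts and BMDMs, by an interaction term in edgeR, for 5 members, in the direction in which 7.71% of all genes were called. The log2 difference, fibroblasts minus BMDMs, was 0.30 for Nfkb1, 0.32 for Nfkb2, 0.99 for Nfkbia, 1.16 for Nfkbie and 0.49 for Bcl3. With 1 library left out, from 3 to 6 members passed. Nfkb1, Nfkbia and Nfkbie passed in 12 of 12 such fits, Nfkb2 in 8 and Bcl3 in 4. For all 5 the log2 fold change was positive in fibroblasts and negative in BMDMs. With all 12 libraries in edgeR, none of the 5 passed between the BMDM labels, and Bcl3 did not pass in fibroblasts. The share of macrophage RNA, 0.0734 ± 0.00755% in WT medium and 1.96 ± 1.15% in PHD2cko medium (SD, n = 3 each), moved with the fibroblast groups, and its part in these differences was not tested.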

How the results depend on the processing

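Fitted on the libraries of the groups compared alone, called genes went from 961 to 2534 in BMDMs and from 2240 to 912 in fibroblasts, and called members from 0 to 7 and from 4 to 2. In BMDMs, 1 member, Bcl3, was called with DESeq2, 1 with limma-voom and 1 with at least 10 counts in every library. With replicate 2 as the 1 library in PHD2cko medium, chosen after the data were seen, 434 genes and 0 members were called, and the lone library is assumed to vary like the other groups. With each library left out, called genes ran from 527 to 664 in BMDMs and from 1260 to 2757 in fibroblasts, and members called in the interaction from 3 to 6. Log2 fold changes that changed sign, none of them called, ran from -0.029 to 0.00264 for Rela in BMDMs, from -0.12 to 0.0445 for Rel and from -0.10 to 0.0235 for Rela in fibroblasts, and from -0.036 to 0.13 for Rel, -0.082 to 0.0434 for Rela and -0.13 to 0.0294 for Nfkbib in the interaction. The cause was not tested. Replicate numbers did not pair the libraries: 0 of 18 same-number pairs correlated above 0.1. With the replicate block, 815 genes were called in BMDMs, 1953 in fibroblasts, 12135 between cell types and 1541 in the interaction, and 0, 3, 10 and 4 members. The calls lost were that of Nfkb2 in fibroblasts and that of Bcl3 in the interaction. Low counts limit the pathway genes named by counts.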
